A study of Homo sapiens with 9 samples.

Results

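The BCL2 family decides whether the outer membrane of the mitochondrion stays closed or opens and lets cytochrome c escape into the cytosol. Anti-apoptotic members (BCL2, BCL2L1 or Bcl-x, MCL1) bind and hold the effectors BAX and BAK1, which form the pores. BH3-only members (BID, BAD, BBC3 or Puma, PMAIP1 or Noxa, BCL2L11 or Bim) carry stress signals to the family, either by occupying the anti-apoptotic proteins or by activating the effectors directly. Much of this regulation acts on proteins, through binding, phosphorylation and degradation, and mRNA levels report only the supply of message.

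These 10 genes were picked by name and were followed in poly(A) RNA of DU145 cells, an established human prostate cancer line derived from a brain metastasis. All groups were DU145 cells labelled WT in genotype that carried an shRNA, with no drug treatment given in the labels. The 3 groups expressed a scrambled shRNA (scramble), a first shRNA against FZD6 (shRNA #1) or a second one (shRNA #2), with 3 libraries per group. FZD6 encodes a Frizzled receptor of Wnt signaling, and the design compares knockdown with scramble. The level of a gene is the sum over its RefSeq transcripts of the FPKM values (fragments scaled to transcript length and to the depth of the library), a scale that is per length and so allows genes to be set beside each other. All 10 were found among the 27860 genes summed, as 56 transcript entries, and 9 of the 10 had a mean of at least 1 FPKM and were tested together with the other genes that passed, 12509 in all. BCL2 did not pass. The labels call the libraries triplicates and do not say whether they came from separate cultures, so p-values measure the spread between these libraries, which may be technical.

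FZD6 itself lay between 20.04 and 20.9 FPKM in scramble, between 9.47 and 10.2 with shRNA #1, and between 7.69 and 8.79 with shRNA #2. The epithelial keratins KRT8 and KRT18 were above 200 FPKM in each library, whereas the prostate luminal genes KLK3, KLK2 and TMPRSS2 did not exceed 0.048 FPKM in any. The depth behind the values was not recorded, and the deposited confidence bounds correspond to roughly 33.0 to 41.4 M mapped fragments per library.

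Expression of the family spanned from nearly 100 FPKM to below 0.2 FPKM in DU145 cells. In scramble, BCL2L1 had a mean of 92.3 ± 1.66 FPKM (SD, n = 3) and MCL1 90.4 ± 2.79 FPKM. Then came BAX (47.9 ± 2.90), BAD (44.3 ± 1.48), BID (29.6 ± 0.559), BAK1 (16.4 ± 0.707), PMAIP1 (9.22 ± 0.856), BCL2L11 (8.08 ± 0.0539) and BBC3 (3.53 ± 0.179), all in FPKM. BCL2 was last at 0.0916 ± 0.0680 FPKM. In this order the libraries of BCL2L1 and MCL1 overlapped, as did those of BAX and BAD, and each other pair of neighbours was apart in scramble. By mean over the 9 libraries MCL1 ranked 897 and BCL2L1 917 among the summed genes. BCL2 ranked 16283.

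**Figure D1:**
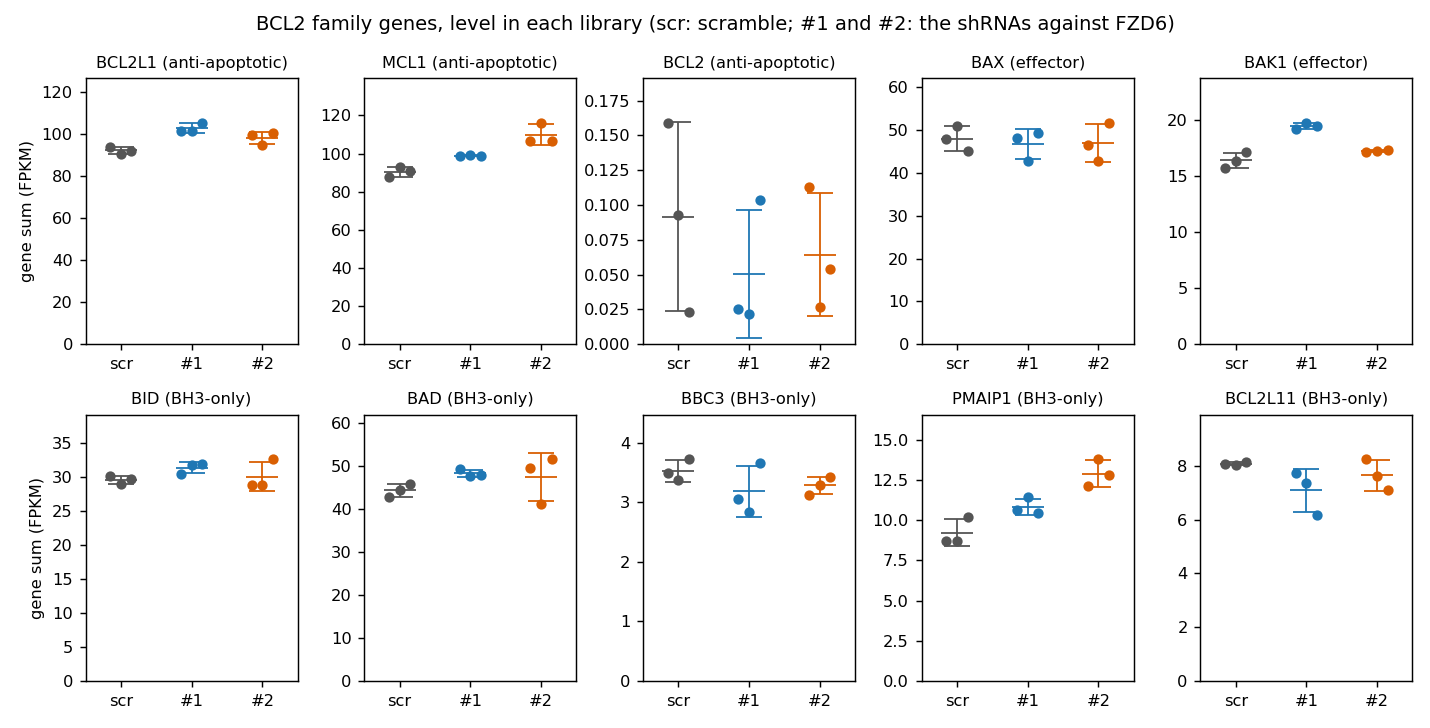
FPKM summed per gene (y axis, from 0, a separate scale for each gene) of the 10 members in the 9 libraries (x axis, scramble, shRNA #1, shRNA #2). Dots are libraries, long bars the mean and whiskers the SD of 3 libraries. MCL1 and PMAIP1 are highest with shRNA #2, BCL2L1 and BAK1 with shRNA #1, and BCL2 stays under 0.160 FPKM in each library.

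Sequences of BCL2L1 and PMAIP1 carry what follows. BCL2L1 is transcribed from the minus strand of chromosome 20 (31664452 to 31723963, GRCh38) and is spliced in 2 coding forms with opposite known functions. The long form, Bcl-xL, protects the cell, and the short form, Bcl-xS, promotes death because a splice site inside the first coding exon removes a segment of the groove that binds BH3 domains. The segment is 189 coding bases long and lies at chr20:31721655-31721843. It is shown in capitals between the 24 bases on either side, which the short form joins directly (GENCODE transcripts, GRCh38, written 5′ to 3′ on the minus strand).
Bcl-xL: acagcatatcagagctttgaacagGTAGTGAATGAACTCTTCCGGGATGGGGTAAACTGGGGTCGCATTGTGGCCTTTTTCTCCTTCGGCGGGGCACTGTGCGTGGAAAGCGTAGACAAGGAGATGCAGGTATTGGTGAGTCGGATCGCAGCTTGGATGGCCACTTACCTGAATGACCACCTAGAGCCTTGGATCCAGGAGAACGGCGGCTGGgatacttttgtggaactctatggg
Bcl-xS: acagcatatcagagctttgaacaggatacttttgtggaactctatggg

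The upstream region of PMAIP1 is shown because PMAIP1 had the largest difference of the family and because a CRE half-site, bound by CREB and ATF proteins, is a known element of this promoter. The 250 bases before the RefSeq start are at chr18:59899746-59899995, plus strand, GRCh38. Capitals mark the match to TGACG, here on the opposite strand and so written CGTCA, beginning at position -55 from the start.
PMAIP1: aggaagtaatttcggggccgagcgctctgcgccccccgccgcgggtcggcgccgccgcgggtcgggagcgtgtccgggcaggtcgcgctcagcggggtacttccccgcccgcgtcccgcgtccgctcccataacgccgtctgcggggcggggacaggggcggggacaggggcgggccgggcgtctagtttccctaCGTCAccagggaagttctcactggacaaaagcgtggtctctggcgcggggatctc
The half-site TGACG was searched on both strands in RefSeq windows of 250 bases before to 50 after each start. It was present in 24.6% of the 35116 windows. Of the 9 members that had a window, 5 had it in at least 1 window (BAD, BAX, BCL2, BCL2L1 and PMAIP1). These 9 members had 15 windows, so the count per gene cannot be set beside the share per window. The full CRE, TGACGTCA, which contains the half-site on both strands, was in 1.85% of all windows and in none of the members'. The C/EBP-ATF letters TGATGNAA were in 3.62% of windows and in none of the members'. The FOXO letters GTAAACA were in 3.42% of windows and in that of BCL2L11, and a p53 consensus half-site was in 6.63% of windows and in that of BAK1. These are exact matches of letters only, and the motifs were chosen with the levels known. A site that departs from the letters was not counted, so a gene without a match may still have such a site.

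Of the anti-apoptotic genes, MCL1 rose with shRNA #2 and BCL2L1 with shRNA #1, and BCL2 was too low to be tested. MCL1, a short-lived protein that holds BAK1 and binds PMAIP1, was 87.5, 93.0 and 90.6 FPKM in the scramble libraries. It was 98.8, 99.1 and 98.6 FPKM with shRNA #1, and 106, 116 and 107 FPKM with shRNA #2. No library of either knockdown group overlapped with scramble, and the shRNA #2 libraries were also above those of shRNA #1. Against scramble, the mean FPKM was 9.33% higher with shRNA #1 and 21.4% higher with shRNA #2. On the log2(FPKM + 1) scale the difference was 0.28 with shRNA #2 (SE 0.0403, adjusted p = 0.0035) and 0.13 with shRNA #1 (SE 0.0403, adjusted p = 0.0643), so the rise passed the threshold of 0.05 with shRNA #2. The call for shRNA #2 was kept under all 22 alternatives run. The difference for shRNA #1 was past 0.05 under 7 of 22. MCL1 lies on chromosome 1 (150574558 to 150579610, GRCh38).

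BCL2L1 was 93.9, 90.6 and 92.2 FPKM in scramble, 101, 102 and 105 FPKM with shRNA #1, and 99.6, 95.1 and 100.4 FPKM with shRNA #2. Both knockdown groups were above scramble in each library. The mean was 11.4% higher with shRNA #1 (log2 difference 0.15, SE 0.0315, adjusted p = 0.0171) and 6.56% higher with shRNA #2 (0.09, SE 0.0315, adjusted p = 0.0698). The rise with shRNA #1 passed under 18 of 22 alternatives. It no longer passed without scramble replicate 2 (adjusted p = 0.0614), without shRNA #1 replicate 3 (0.063), with protein-coding accessions only (0.0527) or under quantile normalization (0.0738).

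BCL2, the founding member, was listed at 0.159, 0.0928 and 0.0231 FPKM in scramble, at 0.0254, 0.022 and 0.103 FPKM with shRNA #1, and at 0.113, 0.0266 and 0.0537 FPKM with shRNA #2. By the estimated depths this is about 5 to 28 fragments per library. The groups overlapped, and no change of BCL2 could be detected at this depth.

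The effectors behaved unlike each other. BAK1 (chromosome 6, 33572552 to 33580276, a single RefSeq entry) was 15.7, 16.3 and 17.1 FPKM in scramble, 19.2, 19.7 and 19.5 FPKM with shRNA #1, and 17.2, 17.2 and 17.3 FPKM with shRNA #2. The shRNA #1 libraries were above the other 6, and the shRNA #2 libraries lay just above the highest scramble library. BAK1 rose by 18.8% in mean FPKM with shRNA #1 (log2 difference 0.24, SE 0.0327, adjusted p = 0.00605), a call kept under all 22 alternatives. With shRNA #2 the difference was 5.09% (log2 0.07, adjusted p = 0.161). BAX was 47.8, 50.9 and 45.1 FPKM in scramble, 48.2, 42.8 and 49.3 FPKM with shRNA #1, and 46.5, 42.9 and 51.7 FPKM with shRNA #2, and all groups overlapped. Its log2 difference was -0.03 with either shRNA, with 95% intervals from -0.23 to 0.16 and from -0.22 to 0.16, which leave room for changes as large as those of MCL1 with shRNA #1. DU145 is a line known to lack BAX protein because of a frameshift in the coding sequence, which RNA levels of the gene do not show. BAX over BAK1 in FPKM was 2.93 ± 0.263 in scramble, 2.41 ± 0.204 with shRNA #1 and 2.73 ± 0.251 with shRNA #2.

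Among the BH3-only genes, PMAIP1 stood out. Noxa binds MCL1 preferentially and takes it to degradation. Its single RefSeq entry (chromosome 18, 59899996 to 59904305) was 8.73, 8.73 and 10.2 FPKM in scramble, 10.6, 11.4 and 10.5 FPKM with shRNA #1, and 12.1, 13.8 and 12.8 FPKM with shRNA #2. The 3 groups did not overlap, although scramble replicate 3 came close to shRNA #1. The mean was 17.4% higher with shRNA #1 (log2 difference 0.21, SE 0.0691, adjusted p = 0.0695) and 39.9% higher with shRNA #2 (0.44, SE 0.0691, adjusted p = 0.00439). Only the latter passed, and it passed under all 22 alternatives. The estimated depths put 585 to 968 fragments per library behind these values. The ratio of PMAIP1 to MCL1 in FPKM was 0.102 ± 0.00964 in scramble, 0.110 ± 0.00485 with shRNA #1 and 0.118 ± 0.00308 with shRNA #2.

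No other BH3-only gene passed the test under either shRNA. BID, which is cut by caspase-8 to link death receptors to mitochondria, was 30.1, 28.99 and 29.7 FPKM in scramble, 30.4, 31.8 and 31.9 FPKM with shRNA #1 and 28.8, 28.8 and 32.6 FPKM with shRNA #2. BAD, controlled by survival-kinase phosphorylation, was 42.7, 44.5 and 45.7 FPKM in scramble, 49.2, 47.7 and 47.8 FPKM with shRNA #1 and 49.6, 41.1 and 51.5 FPKM with shRNA #2. For BAD the shRNA #1 libraries were above scramble and the shRNA #2 libraries lay on both sides of it, with replicate 2 the lowest of all 9. Without that library BAD passed against scramble with shRNA #2 (log2 difference 0.19, adjusted p = 0.0101), and with shRNA #1 as well (0.12, adjusted p = 0.033). In that fit 4195 of the 12509 tested genes passed with shRNA #2 and 3538 with shRNA #1. BAD passed under 1 of 22 alternatives with shRNA #2 and under 2 of 22 with shRNA #1. The library is singled out by its low BAD value, so these passes are no support for a rise of BAD.

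BBC3 and BCL2L11 leaned the other way. BBC3, a p53 target, was 3.49, 3.37 and 3.72 FPKM in scramble, 3.05, 2.84 and 3.66 FPKM with shRNA #1 and 3.13, 3.30 and 3.42 FPKM with shRNA #2, resting on about 178 to 249 fragments per library. BCL2L11, which FOXO factors induce and ERK signaling turns over, was 8.07, 8.03 and 8.14 FPKM in scramble, 7.73, 7.36 and 6.19 FPKM with shRNA #1 and 8.25, 7.63 and 7.09 FPKM with shRNA #2. Its scramble libraries were the tightest of the family and all above those of shRNA #1. The log2 differences with shRNA #1 and shRNA #2 were -0.12 and -0.08 for BBC3 (adjusted p = 0.276 and 0.438) and -0.17 and -0.07 for BCL2L11 (adjusted p = 0.155 and 0.517).

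**Figure D2:**
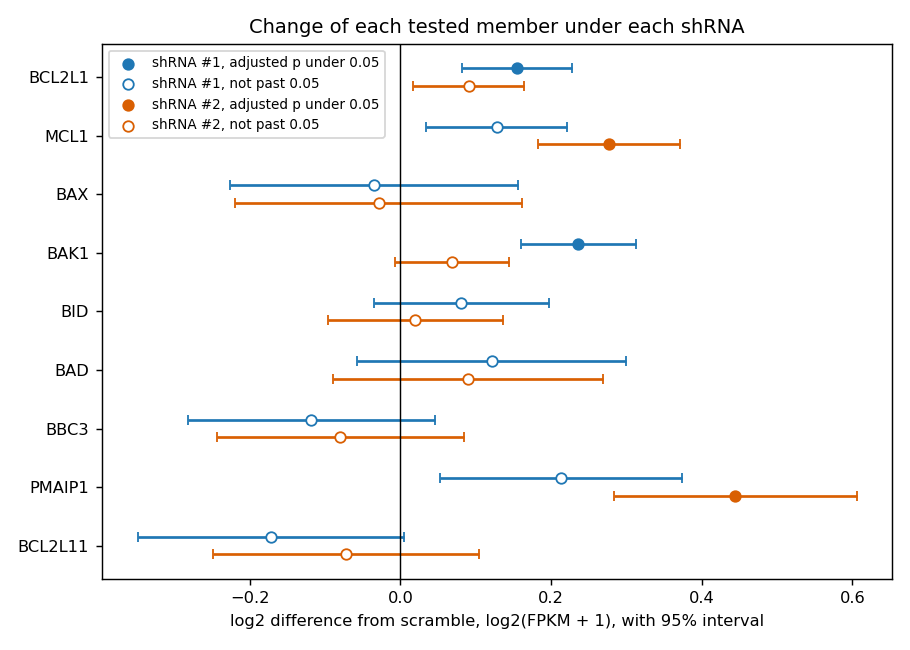
Difference from scramble in log2(FPKM + 1) (x axis) of the 9 tested members (y axis) for shRNA #1 (blue) and shRNA #2 (orange), with 95% intervals from limma. Filled points have an adjusted p under 0.05: BCL2L1 and BAK1 with shRNA #1, and MCL1 and PMAIP1 with shRNA #2.

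By count, 2 of 9 tested members passed with shRNA #1, both higher, where 18.8% of all tested genes passed (11.7% higher and 7.19% lower). With shRNA #2, 2 of 9 passed, again both higher, where 26.7% of all tested genes did (15.3% higher and 11.4% lower). These shares of the family are near those of all genes. The median log2 difference over the 9 members was 0.12 with shRNA #1 and 0.07 with shRNA #2, beside 0.027 and 0.025 over all tested genes. Genes with shorter transcripts tended to have higher differences (Spearman rho -0.443 with shRNA #1 and -0.364 with shRNA #2). MCL1 and BCL2L11 have mean transcript lengths of 3916 and 3898 bases. The other tested members have 573 (BAX) to 2552 (BCL2L1), beside a median of 2643 over tested genes of known length. The part of length in the family medians was not tested.

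The direct test of shRNA #2 against shRNA #1 asked whether the 2 knockdowns differed. BAK1 was lower with shRNA #2 by 11.6% in mean FPKM (log2 difference -0.17, SE 0.0327, adjusted p = 0.0246). It was the only member of the 9 that passed, where 6.71% of tested genes did and 4.79% were lower. This call was lost without shRNA #1 replicate 1, 2 or 3 or without shRNA #2 replicate 1 or 3, with adjusted p from 0.0587 to 0.0937. MCL1 and PMAIP1 were higher with shRNA #2, by 0.15 (95% interval 0.06 to 0.24, adjusted p = 0.072) and 0.23 (0.07 to 0.39, adjusted p = 0.0953), and neither difference passed. BCL2L1 was -0.06 (-0.14 to 0.01, adjusted p = 0.29). That one shRNA passed and the other did not is therefore no evidence of a difference between them for BCL2L1, MCL1 or PMAIP1. FZD6 itself was lower with shRNA #2 than with shRNA #1 (log2 difference -0.25, adjusted p = 0.0273).

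With both shRNAs pooled into a single knockdown group, BCL2L1, MCL1 and PMAIP1 rose. Their log2 differences were 0.12 for BCL2L1 (SE 0.0333, adjusted p = 0.0336), 0.20 for MCL1 (SE 0.0556, adjusted p = 0.0347) and 0.33 for PMAIP1 (SE 0.0887, adjusted p = 0.0325). These are increases of 9.00%, 15.4% and 28.6% in mean FPKM. No member fell, also at an unadjusted p under 0.05, and 3 of 9 called compares with 20.6% of all tested genes (13.5% higher and 7.10% lower). BAK1 was 11.96% higher without passing (log2 0.15, adjusted p = 0.0911). All 6 knockdown libraries were above all 3 scramble libraries for BCL2L1, MCL1, PMAIP1 and BAK1, that is for 4 of 9 members, where 25.9% of tested genes had groups that did not overlap in either direction. BAD, BID, BAX, BBC3 and BCL2L11 had log2 differences of 0.11, 0.05, -0.03, -0.10 and -0.12, with adjusted p from 0.244 to 0.77.

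The combined calls were close to the threshold. BCL2L1 no longer passed without any one of scramble replicates 1, 2 and 3, shRNA #1 replicates 1, 2 and 3 or shRNA #2 replicate 3 (adjusted p from 0.0509 to 0.125). MCL1 no longer passed without scramble replicate 1, 2 or 3 or shRNA #2 replicate 1 or 3 (0.0594 to 0.128), and PMAIP1 without scramble replicate 1 or 2, shRNA #1 replicate 2, or shRNA #2 replicate 1 or 3 (0.0514 to 0.125). Leaving out shRNA #2 replicate 2 instead gave 4 members, where the genes passing rose from 2578 to 3255 of 12509. The log2 differences of these 3 genes stayed above 0 under each of the 21 alternatives. For these genes no knockdown library overlapped with scramble, so leaving out a library or changing the pseudocount or filter could not turn the sign. Quantile normalization left only PMAIP1, and over all genes it moved the calls from 1690 higher and 888 lower to 1047 higher and 1058 lower. Removing the trend of the differences on transcript length (Spearman rho -0.435 across genes, which are not independent) left only MCL1, with 822 genes higher and 711 lower. For shRNA #1 the same steps turned 1458 higher and 899 lower into 827 higher and 1054 lower by quantile normalization, and into 760 and 770 without the length trend. For shRNA #2 they turned 1913 higher and 1422 lower into 1545 and 1588, and into 1404 and 1532.

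Summed by role, the anti-apoptotic gene sum, which counts all BCL2L1 transcripts, was higher in each knockdown library than in any scramble library. The 3 anti-apoptotic genes together gave 182, 184 and 183 FPKM in scramble, 200.2, 200.7 and 204 FPKM with shRNA #1, and 206, 211 and 207 FPKM with shRNA #2. The 7 pro-apoptotic genes together gave 159 ± 2.10 FPKM in scramble, 167 ± 2.86 with shRNA #1 and 166 ± 10.8 with shRNA #2, and the last group reached from 155 to 176 FPKM, wider than scramble on both sides. The anti- over pro-apoptotic ratio was 1.15 ± 0.00849 in scramble, 1.21 ± 0.0184 with shRNA #1 and 1.26 ± 0.0964 with shRNA #2. Each knockdown library was above scramble in this ratio, and the largest value, 1.37, came from shRNA #2 replicate 2, the library with the lowest BAD. BCL2L1 made up 50.5% ± 1.21 of the anti-apoptotic sum in scramble and 47.3% ± 1.96 with shRNA #2. The sums weigh abundant genes most, carry no test, and do not measure protein. The anti-apoptotic sum includes Bcl-xS and a non-coding BCL2L1 transcript. The long form of BCL2L1 alone was 63.1 to 75.2 FPKM in scramble and 67.6 to 76.9 FPKM in the knockdown libraries, which overlap. BAX, whose protein DU145 is known to lack, made up 26.2% to 31.6% of the pro-apoptotic sum.

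**Figure D3:**
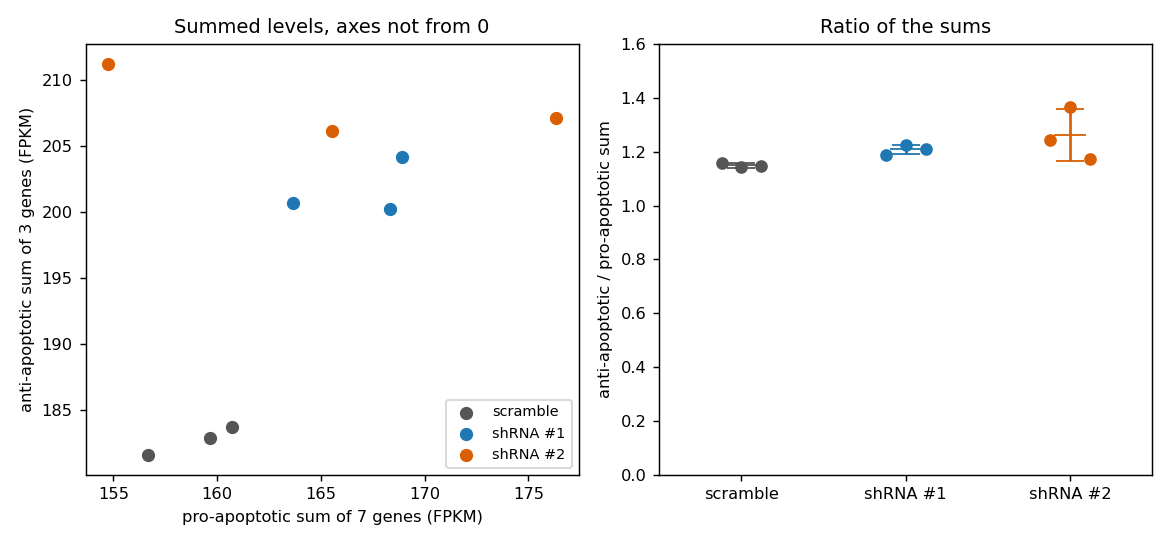
Left, the sum of the 3 anti-apoptotic genes (y axis, FPKM) against that of the 7 pro-apoptotic genes (x axis, FPKM) in the 9 libraries, with axes that do not start at 0. Right, their ratio per library with mean and SD of 3 libraries; scramble sits at 1.14 to 1.16 and the knockdown libraries at 1.17 to 1.37.

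At the level of single transcripts, MCL1 came almost entirely from its long, anti-apoptotic form (1050 coding bases), at 85.0, 92.0 and 87.7 FPKM in scramble, 97.6, 96.9 and 97.7 FPKM with shRNA #1, and 104, 114 and 103 FPKM with shRNA #2. This transcript rose with shRNA #2 (log2 difference 0.27, SE 0.0541, adjusted p = 0.0499, over 19780 transcripts), as did the single PMAIP1 entry (0.44, adjusted p = 0.0364), where 2.75% of transcripts passed. The MCL1 transcript of 591 coding bases lay between 0.513 and 3.48 FPKM, and that of 813 coding bases did not exceed 0.953 FPKM. No other member transcript passed with shRNA #2, and none passed with shRNA #1 (0.415% of transcripts), in the combined comparison (1.09%) or between the shRNAs (0.470%). At an unadjusted p under 0.05, limma gave 5 of the 25 member transcripts tested in the combined comparison (3 higher, 2 lower), where 18% of all transcripts had such a p. It gave 5 with shRNA #1 (4 higher, 1 lower, 16.5% of all) and 4 between the shRNAs (2 higher and 2 lower with shRNA #2, 11.5% of all).

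BCL2L1 message was mostly of the long form. The 7 accessions that code for the 699 bases of Bcl-xL summed to 75.2, 65.4 and 63.1 FPKM in scramble, 76.9, 67.6 and 73.8 FPKM with shRNA #1, and 70.2, 74.3 and 72.9 FPKM with shRNA #2. The accession of Bcl-xS, with 510 coding bases, was 12.1, 19.5 and 20.6 FPKM in scramble, 14.0, 24.8 and 23.2 FPKM with shRNA #1, and 22.1, 12.8 and 20.2 FPKM with shRNA #2. Its share of the gene was 18.9% ± 5.22 in scramble, 20.1% ± 5.57 with shRNA #1 and 18.6% ± 4.55 with shRNA #2. One library of each group was between 12.9% and 13.8% and the others between 20.1% and 24.4%, so the spread within a group was larger than any difference between groups. The 2 forms share all coding bases but the segment printed above, and the split between them is an estimate by Cufflinks.

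**Figure D4:**
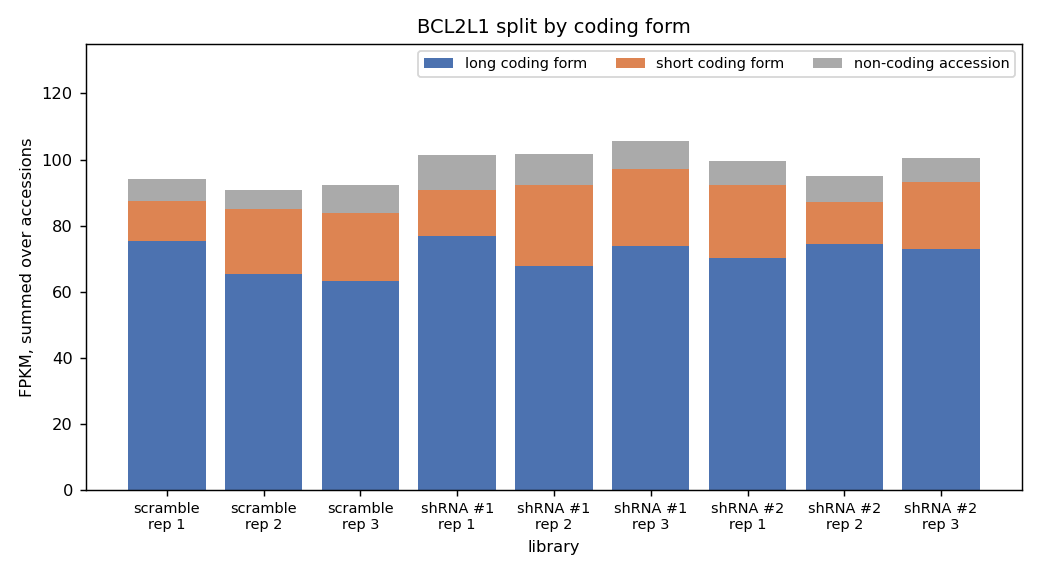
BCL2L1 in the 9 libraries (x axis), as stacked FPKM (y axis, from 0) of the accessions coding for the long form, the short form and a non-coding accession. The short form takes between 12.9% and 24.4% of the gene, with low and high libraries in each group.

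The other members differed in how many transcripts they came from. BAK1 and PMAIP1 each had 1 entry. BAD had 2 of 2 entries with a mean of at least 1 FPKM, which code for the same 504 bases, BID 2 of 7, BCL2L11 2 of 18, BBC3 2 of 4, BAX 6 of 9 and BCL2 0 of 2. The largest BCL2L11 entry, of 594 coding bases, matches the extra long form of Bim and was between 2.60 and 4.60 FPKM. The full-length BID transcript (585 coding bases) was between 13.2 and 25.0 FPKM, and its 297-base companion between 3.21 and 16.1 FPKM, and the library that was lowest in the one was highest in the other, at both ends (scramble replicate 1 and shRNA #2 replicate 2). The gene sum of BID stayed between 28.8 and 32.6 FPKM.

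Beyond the 10 members, 14 further genes of the family were listed, and 9 had a mean of at least 1 FPKM. In the combined comparison BCL2L13, a mitochondrial member with a role in mitophagy, rose (log2 difference 0.14, SE 0.0244, adjusted p = 0.00764), and BMF, a BH3-only gene activated by loss of anchorage, fell (-0.24, SE 0.0512, adjusted p = 0.0145). BCL2L13 was 38.9 to 39.6 FPKM in scramble and 41.7 to 44.1 FPKM in the knockdown libraries. BMF was 2.22 to 2.64 FPKM in scramble and 1.77 to 2.12 FPKM in the knockdown libraries. BCL2L2, an anti-apoptotic member also called Bcl-w, was 3.26 to 3.39 FPKM in scramble, 3.15 to 3.38 FPKM with shRNA #1 and 3.66 to 4.17 FPKM with shRNA #2, and it was higher with shRNA #2 than with shRNA #1 (log2 difference 0.21, adjusted p = 0.0303). BCL2A1, BCL2L10, HRK, BCL2L14 and BCL2L15 did not exceed 0.485 FPKM in any library.

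Downstream of the mitochondrion, 3 of 12 tested genes of the apoptosome and caspase list were higher in the combined comparison and none was lower, beside 13.5% higher and 7.10% lower of all tested genes. These were DIABLO (0.20, adjusted p = 0.00585) and HTRA2 (0.18, adjusted p = 0.0114), which counter the inhibitors of apoptosis, and CYCS, cytochrome c (0.16, adjusted p = 0.0259). All 3 proteins reside between the mitochondrial membranes until release and also serve the healthy organelle. DFFA, the chaperone and inhibitor of the nuclease that cuts DNA in apoptosis, was 14.7 to 15.3 FPKM with shRNA #1 and 11.3 to 12.2 FPKM with shRNA #2 (log2 difference -0.33, adjusted p = 0.0055).

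Of 5 tested inhibitors of apoptosis, BIRC5 (survivin) rose (0.09, adjusted p = 0.0271), and XIAP (-0.18, adjusted p = 0.023) and BIRC6 (-0.37, adjusted p = 0.0396) fell. In the death receptor list, FADD, the adaptor of caspase-8, was the only one of 9 that passed (0.16, adjusted p = 0.0317). Among 9 tested transcription factors known to act on family genes, DDIT3 (0.32, adjusted p = 0.019), JUN (0.17, adjusted p = 0.00371) and ATF4 (0.14, adjusted p = 0.0342) rose and none fell. Beside the counts of these lists, 13.5% of all tested genes were higher and 7.10% lower. DDIT3, or CHOP, was 29.3 to 29.8 FPKM in scramble, 39.0 to 41.5 FPKM with shRNA #1 and 33.4 to 34.9 FPKM with shRNA #2, so it was higher with shRNA #1 than with shRNA #2 (adjusted p = 0.00626).

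Genes that set the stability or docking of family proteins moved in both directions, with 2 higher and 2 lower of 6 tested. Over all tested genes the shares were 13.5% higher and 7.10% lower. HUWE1, a ubiquitin ligase of MCL1, fell from 27.1 to 30.6 FPKM in scramble to 18.2 to 23.0 FPKM in the knockdown libraries (log2 difference -0.52, SE 0.0725, adjusted p = 0.00332). USP9X, a deubiquitinase that protects MCL1, fell as well (-0.30, adjusted p = 0.0103). VDAC3 (0.15, adjusted p = 0.0207) and VDAC2, which brings BAK1 to the outer membrane (0.11, adjusted p = 0.0243), rose. HUWE1, BIRC6 and USP9X have transcripts of 14739, 15703 and 8821 bases beside a median of 2643 over the genes tested with a known length, and the longer a transcript, the lower its difference tended to be in these libraries. The part of length in these falls was not tested.

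**Figure D5:**
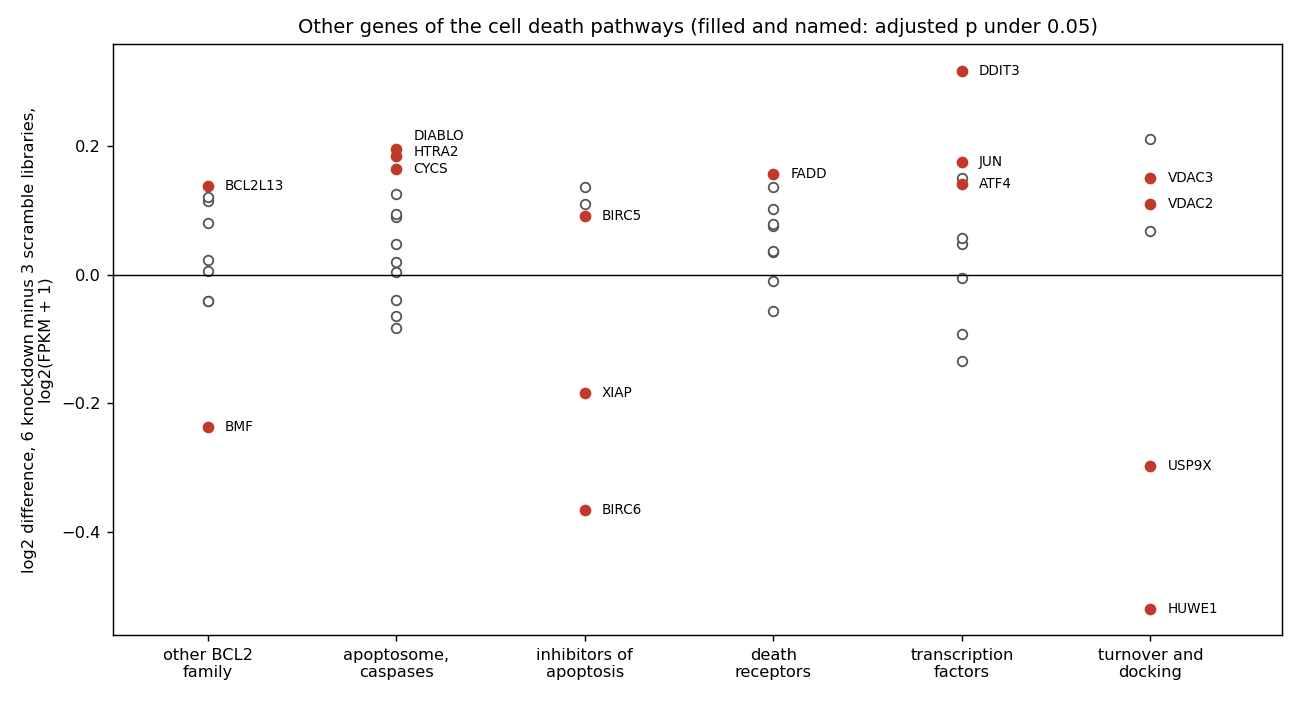
Difference in log2(FPKM + 1) between the 6 knockdown and the 3 scramble libraries (y axis) for the tested genes of 6 lists (x axis). Each circle is a gene, filled and named where the adjusted p is under 0.05; HUWE1 at -0.52 is the lowest and DDIT3 at 0.32 the highest.

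Over the 6 lists the medians of the log2 difference lay between 0.022 for the other family genes and 0.09 for the inhibitors of apoptosis, beside 0.027 over all genes. Of 8 markers of blood, endothelial and fibroblast cells, only CD68, a lysosomal protein that epithelial lines also make, was above 0.46 FPKM. The summed level of the list was 17.2 to 18.5 FPKM in scramble, 21.6 to 23.4 with shRNA #1 and 25.5 to 26.1 with shRNA #2, of which all but 0.343 to 0.488 FPKM was CD68. PTPRC and CD3E were listed at 0 in each library. The part of CD68 in the member results was not tested. Of the epithelial markers EPCAM rose (0.26, adjusted p = 0.0173) and CDH1 fell (-0.28, adjusted p = 0.0104).

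Across the 9 libraries, the tested genes whose log2 levels followed PMAIP1 most closely were ANXA1 (Pearson r = 0.983), GNPNAT1 (0.979) and CCZ1 (0.976). For BCL2L11, the member with the largest decrease in the combined comparison, they were NDRG3 (0.915), KCTD7 (0.900) and CLCN2 (0.894). These values describe likeness over 9 points in 3 groups, picked as the highest among all tested genes.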

How the data were processed

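RNA of DU145 cells was measured by RNA sequencing in 9 libraries, 3 for each of scramble, shRNA #1 and shRNA #2, grouped by their labels. Per the study's methods, libraries were made with a stranded mRNA kit. STAR and Cufflinks, named in the submitters' processing notes, gave the deposited values, which are FPKM per RefSeq transcript, already normalized by the authors for length and depth. The submitters' notes name hg38, and the transcript loci are those of hg38, whereas the methods name a mouse build. Tool versions were not given in the sources used here.

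The 9 tables were joined by accession and locus (83497 entries each), and accessions were matched to gene symbols of RefSeq (GRCh38.p14). Of 73240 accessions, 595 had no match, and these held 0.387% to 0.431% of the FPKM. FPKM were summed per gene, and 42 genes were left out because the Cufflinks status of some entry was not OK. Genes whose mean over the 9 libraries reached 1 FPKM were tested on log2(FPKM + 1) with limma 3.58.1 in R 4.3.3, two-sided, with Benjamini-Hochberg adjustment over all 12509 genes and a threshold of 0.05. A difference on this scale understates the change of low genes. No count model was used, since FPKM are not counts. The combined comparison set 6 knockdown libraries against 3, and the others were contrasts in a model with 3 groups. The procedure was tested on simulated data first. Sums and tables were made with pandas 2.3.3 in Python 3.11.15. Depth was estimated from the width of the deposited FPKM confidence bounds of 1476 genes with a single transcript, so fragment numbers are approximate and cover counting error only.

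The members and lists were chosen with earlier results of these data known. The text names all 10 members, from each further list at most the 3 largest rises and the 3 largest falls that passed in the combined comparison, and for the members with the largest rise and fall the 3 genes most like them. BCL2L2, DFFA and the direct shRNA difference of DDIT3 were named after their values were seen. Alternatives changed the pseudocount, filter, scaling, length trend, accessions, model and libraries. Some listed genes are not reported here.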

Additional observations from a re-analysis of the deposited data

Results flagged for a closer look

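Of the 10 members, each examined for a library far from the other 5 among the 6 knockdown libraries, 1 had such a library, where chance gives about 0.5. BAD was 41.1 FPKM in shRNA #2 replicate 2, below the other 5. The cause was not tested.

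BAK1 differed between the 2 shRNAs in a direct test, with a log2 difference of -0.17 for shRNA #2 against shRNA #1 (limma, adjusted p = 0.0246). All 3 libraries of shRNA #2 were below all 3 of shRNA #1.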

How the results depend on the processing

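MCL1 and PMAIP1 with shRNA #2 and BAK1 with shRNA #1 passed under all 22 alternatives. Over all members and alternatives, 704 values kept direction and side of the threshold, 39 no longer passed, 17 newly passed and 19 changed sign. The study's cut-offs, p under 0.01 and a fold of 1.2, were applied here to unadjusted limma p-values, whereas the study used a t-test. In the combined comparison they gave 416 genes, 161 higher and 255 lower, and 1 member (PMAIP1). In that comparison 1 member passed without filter (2337 of 21356 genes passed), under quantile normalization (2105 of 12509), without the length trend (1533) and with the replicate block (2377). Removal of the length trend left 1533 genes there and 1530 with shRNA #1. The replicate block together with removal of the length trend, chosen after seeing the data, gave 1122 genes and 0 members (combined), 1336 genes and 3 members (shRNA #1) and 1035 genes and 2 members (between shRNAs). Fits on only the 6 libraries compared gave 4 members and 3409 genes with shRNA #1, 2117 genes with shRNA #2 and 337 genes between shRNAs. Quantile normalization gave 1 member and 1881 genes with shRNA #1. Between shRNAs, median centring and removal of the length trend gave 2 members each, with 889 and 1184 genes. Leaving out 1 library gave 997 to 3255 genes and 0 to 4 members (combined), 917 to 3538 genes and 1 to 4 members (shRNA #1), 2097 to 4195 genes and 2 to 4 members (shRNA #2), and 333 to 1172 genes and 0 to 1 members (between shRNAs); with 2 libraries left, a group borrows the spread of the others. The cause was not tested.

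Signs changed only in values that did not pass. Without the length trend, with and without the block, BAD was -0.0061 and BID -0.0032 (combined) and BAD -0.018 and BID -0.030 (shRNA #2), and BID was -0.011 under quantile normalization (shRNA #2). With 1 library left out, BAX ran from -0.074 to 0.011 (combined), -0.077 to 0.026 (shRNA #1), -0.098 to 0.034 (shRNA #2) and -0.063 to 0.069 (between shRNAs), BID from -0.038 to 0.049 (shRNA #2), and between shRNAs BAD from -0.093 to 0.066 and BBC3 from -0.020 to 0.12.

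Replicate numbers showed no clear pairing of the samples. The 9 correlations of deviations between same-numbered libraries ran from -0.0710 to 0.111, with 1 over 0.1. The 18 between differently numbered libraries ran from -0.123 to 0.184, also with 1 over 0.1. Such correlations cannot show whether same-numbered libraries were handled together. With the replicate block, 2377 genes passed in the combined comparison, 2525 with shRNA #1, 3558 with shRNA #2 and 802 between shRNAs; members passing were 1, 3, 2 and 1.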
